A study of Homo sapiens with 2 samples.

Results

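The genes described here build and order the brush border, the carpet of microvilli on the apical face of absorptive gut cells. They are 10 of the 36601 genes that both count tables list, taken by symbol: 6 of the microvillus core (VIL1, EZR, MYO1A, ESPN, PLS1 and EPS8) and 4 of the complex that links neighbouring microvilli at their tips (CDHR2, CDHR5, USH1C and MYO7B). Each symbol occurred in the feature lists, so all 10 were measured. The samples are 2 single-cell RNA libraries of colon organoids grown from the human iPS cell line 1383D6, in a series whose title names an ulcerative colitis model. One library (CNT) came from organoids without added cytokines, the other (3CK) from organoids given IL-1β, TNF-α and IFN-γ together over 8 days. Both cultures shared the earlier steps: Activin A, then FGF2, then embedding in Matrigel with EGF, Forskolin, PD98059, 5-Aza-2'-Deoxycytidine and an agent that the label cuts off after "A-83". Each group is 1 library of 1 cell line, so the differences below could not be tested against replicates. The intervals, all at the 95% level, cover the error of counting alone.

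A microvillus is a finger of membrane around a bundle of parallel actin filaments. Villin, espin and fimbrin (VIL1, ESPN, PLS1) bundle the filaments, EPS8 caps and bundles them at the tip, and ezrin (EZR) and the membrane motor myosin-1a (MYO1A) tie the bundle to the surrounding membrane. The protocadherins CDHR2 and CDHR5 reach from the tips of neighbouring microvilli to each other, and inside the cell the scaffold harmonin (USH1C) and the motor MYO7B hold them at the tips, with ANKS4B and the light chain CALML4 as further parts of this complex. In the gut these genes are known as part of the enterocyte programme, and EZR and EPS8 are also used by many other cells with actin-rich protrusions.

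The genes were read in epithelial cells, defined as barcodes with at least 10000 unique molecular identifiers (UMIs, counts of single captured transcripts), at least 2 EPCAM UMIs per 10000 and under 5 UMIs per 10000 of COL1A1, COL1A2 and COL3A1 together. This gave 943 of 1458 deep barcodes in CNT and 717 of 995 in 3CK, with a median depth of 68469 and 93963 UMIs. No barcode was shared by the libraries. They were split at 2 UMIs per 10000 of FABP2 and RBP2, the fatty-acid and retinol carriers of absorptive cells. The positive class held 76 cells in CNT (8.06%, exact binomial interval 6.40 to 9.98) and 13 cells in 3CK (1.81%, 0.969 to 3.08), a difference of -6.25 percentage points (Newcombe interval -8.30 to -4.23). Just under the boundary, at 1 to 2 UMIs per 10000, lay 28 CNT and 6 3CK cells, and just over it, at 2 to 4, lay 15 and 4. Cells with at least 5 collagen UMIs and under 2 EPCAM UMIs per 10000 (collagen cells, 335 in CNT and 109 in 3CK, median depth 52449 and 77791) served as the background in which a brush border is not expected.

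The label of colon epithelium was only partly borne out by the markers of these cells. Levels are given as CPM, the UMIs of a gene summed over the cells of a library and scaled to their total in the usual way. EPCAM, at 1124 CPM in CNT against 960 in 3CK, was used to choose the cells and so says nothing on the label. Keratin 8 (KRT8) stood at 3087 and 7145 CPM, and the hindgut factor CDX2 at 81.4 and 83.3 CPM. The 8 epithelial markers, EPCAM and KRT8 among them, summed to 11574 and 22266 CPM. Of these 8, 3 had a ratio below 0, 1 was at least 2-fold lower in 3CK and 2 were at least 2-fold higher. The hepatic carrier TTR reached 66094 and 19477 CPM, and 7 of 8 hepatic markers were at least 2-fold lower in 3CK. The defining leukocyte gene PTPRC was at 0.234 and 0.0882 CPM. All 6 enterocyte markers were at least 2-fold lower in 3CK, with FABP1 at 1030 and 140 CPM, and all 4 cytokine response markers were at least 2-fold higher. Summed over their lists, the hepatic markers came to 102137 and 33256 CPM, the enterocyte markers to 6386 and 2017 CPM, the mesenchymal markers to 339 and 212 CPM and the leukocyte markers to 62.3 and 65.2 CPM, with no marker of these lists at 0. The 6 goblet markers came to 1645 and 805 CPM and the 6 endocrine markers to 135 and 70.6 CPM, and all 12 had a ratio below 0. Hepatic, enterocyte, goblet and endocrine transcripts therefore moved together with the results below, and values within each FABP2/RBP2 class and within bands of TTR are given beside them. The part of goblet and endocrine transcripts was not tested.

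Among all epithelial cells, 6 of the 10 genes were at least 2-fold lower in 3CK than in CNT and none was 2-fold higher. Over all 9782 genes that reached 10 CPM in 1 or both libraries, 7.74% were at least 2-fold lower and 8.07% at least 2-fold higher. The median log2 ratio of the 10 genes was -1.16, against 0.06 over those 9782 genes. MYO1A did not reach 10 CPM in either library, and without it 5 of 9 were 2-fold lower. The genes fell into those that were lower (VIL1, MYO1A, ESPN, PLS1, CDHR2, CDHR5), those close to level (USH1C, MYO7B) and those that were higher by less than 2-fold (EZR, EPS8), so members of the core and of the adhesion complex stood on both sides.

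**Figure D1:**
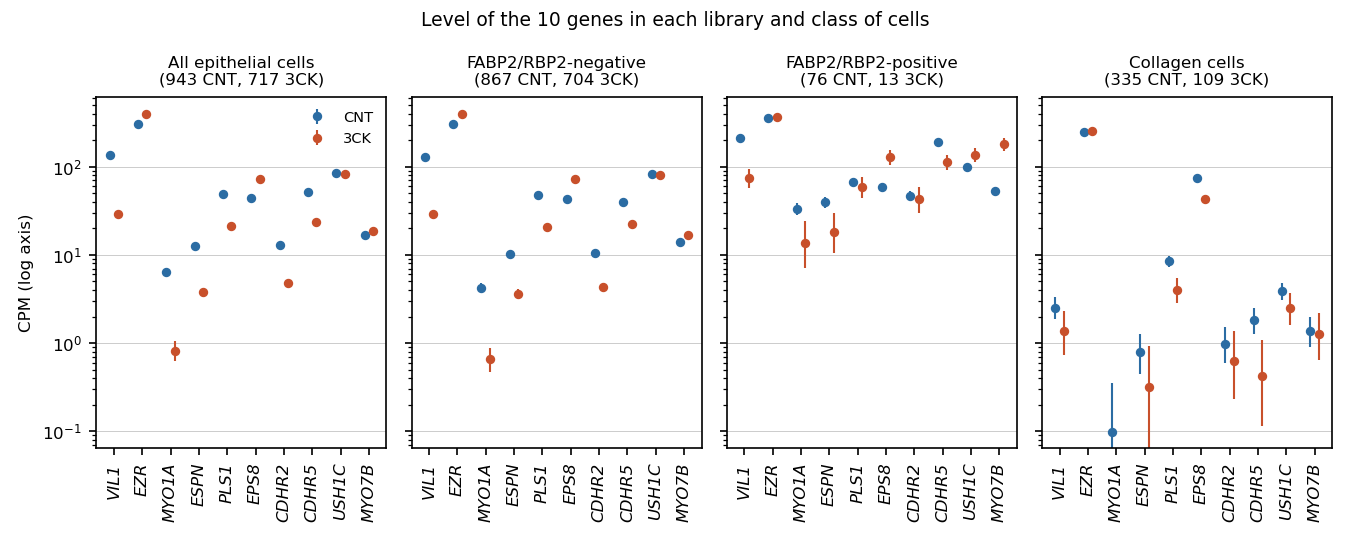
CPM of the 10 genes (log axis) in CNT (blue) and 3CK (red) for all epithelial cells, their FABP2/RBP2-negative and -positive classes and the collagen cells. Points are sums over the cells of 1 library and bars exact Poisson intervals. VIL1 is lower in 3CK in each class of epithelial cells, the USH1C points lie together in all epithelial cells, and EZR and EPS8 stay high in collagen cells; MYO1A had 0 UMIs in 3CK collagen cells and is not drawn there.

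Of the bundling proteins, villin (VIL1, chr2:218419121-218453295, GRCh38, plus strand) was at 134 CPM in CNT against 29.4 in 3CK, a log2 ratio of -2.19 (-2.26 to -2.12), or 4.58-fold lower. Across classes of cells its level ran from 214 CPM in positive CNT cells over 128 in negative CNT cells, 74.7 in positive 3CK cells and 28.8 in negative 3CK cells to 2.51 and 1.36 CPM in CNT and 3CK collagen cells. Only the last pair of neighbours in this order had overlapping counting intervals. VIL1 in positive 3CK cells was thus below its level in the negative cells of CNT. Espin (ESPN, chr1:6424776-6461367, plus strand), which bundles actin in long microvilli and in hair cells, stood at 12.5 and 3.78 CPM, a log2 ratio of -1.73 (-1.93 to -1.52). ESPN has a near-identical pseudogene copy, ESPNP, that the feature lists do not hold, so reads that fit both could have been lost or gained. Fimbrin (PLS1, chr3:142596393-142713664, plus strand) was at 49.1 and 21.2 CPM, a log2 ratio of -1.21 (-1.30 to -1.12). All 3 bundlers were lower in 3CK by more than their counting error.

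The tip protein EPS8 (chr12:15620134-15882329, minus strand) went the other way, at 43.7 CPM in CNT against 73.4 in 3CK, a log2 ratio of 0.75 (0.68 to 0.81). It was not particular to epithelium, since collagen cells held 74.4 CPM in CNT against 42.8 in 3CK. There its log2 ratio had the opposite sign, -0.80 (-0.96 to -0.64). Of the membrane linkers, ezrin (EZR, chr6:158765741-158819368, minus strand) was at 305 and 397 CPM, a log2 ratio of 0.38 (0.36 to 0.41), and was also abundant in collagen cells, at 245 and 251 CPM. Myosin-1a (MYO1A, chr12:57028517-57051198, minus strand) had the lowest ratio of the 10, with 438 UMIs or 6.41 CPM in CNT against 56 UMIs or 0.823 CPM in 3CK, a log2 ratio of -2.96 (-3.39 to -2.56). The 2 linkers therefore differed in opposite directions.

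The adhesion complex was divided as well. The protocadherin CDHR2 (chr5:176542511-176595974, plus strand) was at 13.1 CPM in CNT against 4.78 in 3CK, a log2 ratio of -1.45 (-1.64 to -1.27). Its partner CDHR5 (chr11:616577-626078, minus strand) was at 51.5 and 23.8 CPM, a log2 ratio of -1.11 (-1.20 to -1.03). Both surface proteins were thus lower by more than 2-fold, while the pair inside the cell was not. Harmonin (USH1C, chr11:17493895-17544416, minus strand) was at 84.0 and 81.9 CPM, and its log2 ratio of -0.04 had an interval that included 0 (-0.09 to 0.02). The motor MYO7B (chr2:127535683-127637729, plus strand) was at 16.7 and 18.8 CPM, a log2 ratio of 0.17 (0.05 to 0.28). All 4 were close to absent in collagen cells, where none exceeded 3.89 CPM in either library.

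The proteins around the complex were read from lists of related genes. Of 6 further partners, 4 were at least 2-fold lower in 3CK and none higher, but only 2 of the 6 reached 10 CPM, and 1 of those was lower (7.74% of all genes at that level). With a minimum of 1 CPM in either library, 11.8% of all genes were 2-fold lower. The scaffold ANKS4B, which binds harmonin and MYO7B, was at 7.40 and 2.97 CPM, a log2 ratio of -1.32, whereas the light chain CALML4 was at 113 and 101 CPM, a log2 ratio of -0.16. PCDH15, a cadherin of the corresponding links in hair cells, had the lowest ratio of this list, from 14.8 to 1.72 CPM or -3.11. Intracellular parts of the complex thus also differed among themselves, with USH1C, MYO7B and CALML4 near level and ANKS4B lower.

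Except for the fimbrins, close relatives of the core genes did not all share their direction. Among 9 relatives and scaffolds of ezrin, 2 were at least 2-fold lower and 1 higher. Of the 8 that reached 10 CPM, 1 was lower and 1 higher, beside 7.74% and 8.07% of all genes at that level. Radixin (RDX) was at 343 and 291 CPM, a log2 ratio of -0.23, and moesin (MSN), the relative known from leukocytes and endothelium, was at 14.2 and 43.6 CPM, a log2 ratio of 1.62. PDZK1, an apical scaffold of transporters, stood at 31.3 and 4.72 CPM (-2.73), and SLC9A3R1, the scaffold NHERF1 that ezrin binds, at 192 and 103 CPM (-0.90). Among 13 further bundlers and tip proteins, 1 was lower and 2 were higher by at least 2-fold. Of the 11 that reached 10 CPM, 1 was lower and 1 higher, beside the same shares of all genes. The fimbrins PLS3 and LCP1 had log2 ratios of -0.70 and -1.32, beside -1.21 for PLS1. The EPS8 relatives EPS8L1, EPS8L2 and EPS8L3 had log2 ratios of 0.76, 0.31 and -0.42. Of the villin family, SVIL was at 66.0 and 211 CPM (1.67), and VILL (-0.89) and AVIL (1.18, at no more than 2.25 CPM) were added after their values were seen.

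**Figure D2:**
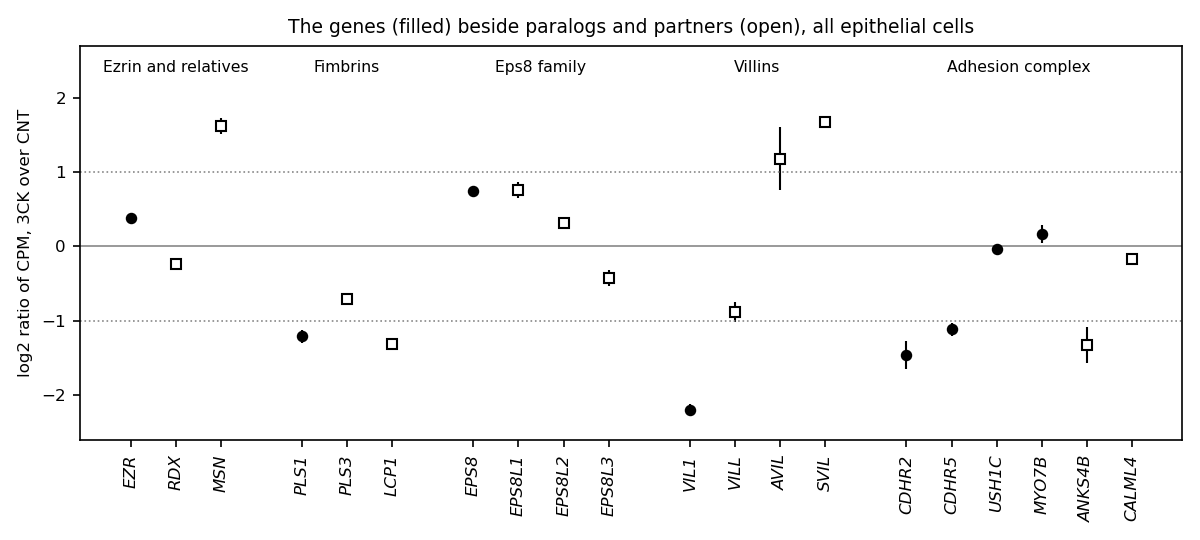
Log2 ratio of CPM, 3CK over CNT, in all epithelial cells for genes of the set (filled) and their paralogs or partners (open); bars are counting intervals, many smaller than the symbol, and dotted lines mark 2-fold. Each family has members on both sides of 0 except the fimbrins, where PLS1, PLS3 and LCP1 all lie below it.

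None of 6 other epithelial myosins, all with at least 10 CPM, was 2-fold lower or higher. Over all genes at that level 7.74% were lower and 8.07% higher, so for so few genes this count is near those shares. The 6 myosins lay between a log2 ratio of 0.12 for MYO5B and 0.87 for MYO1E, with MYO6 at 100.2 and 142 CPM. None of these motors thus had a ratio below 0 as MYO1A did. Of 14 genes of the terminal web and actin, 1 was 2-fold lower and none higher, with ACTB at 0.30, ACTG1 at 0.08 and MYH14 at 0.59. Of the 13 that reached 10 CPM none was 2-fold lower or higher, beside the same shares of all genes. Of 15 brush-border hydrolases, which sit in the microvillar membrane, 10 were lower and 1 was higher by at least 2-fold. Only 6 of the 15 reached 10 CPM, of which 4 were lower and none higher, beside 7.74% and 8.07% of all genes at that level. Aminopeptidase N (ANPEP, named after its value was seen) stood at 185 and 57.1 CPM (-1.70) and trehalase (TREH) at 212 and 14 UMIs (-3.91), whereas the dipeptidyl peptidase DPP4 was at 548 and 452 CPM (-0.28). MEP1B, the 1 higher, rested on 2 and 9 UMIs.

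Of 14 gut transcription factors, none was 2-fold lower or higher in all epithelial cells. Of the genes with at least 10 CPM, as 13 of the 14 were, 7.74% were lower and 8.07% higher. HNF4A, a nuclear receptor known to act on brush-border genes, was at 42.0 CPM in CNT against 24.5 in 3CK, or -0.78 as a log2 ratio (-0.87 to -0.69). ELF3 had the highest ratio of the list, 0.99. TCF7L2 and GATA6, the most abundant of the list, had log2 ratios of 0.37 and -0.92. Named after its value was seen, CDX2 had a ratio of 0.03 (-0.02 to 0.09).

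The table of promoter windows from RefSeq (build GRCh38.p14) matched 6 of the 10 genes, EZR, MYO1A, PLS1, CDHR2, USH1C and MYO7B, with 12 windows. Each window was read over the 250 bases before the start, on both strands. The letters CAAAGT, the core of HNF4A sites, occurred in 4 of the 12 windows, against 10.3% of 35116 windows of the same length. The 4 windows belong to 4 of the 6 genes. This count by gene has no such share beside it, since most of the 6 genes had several windows. The CDX2 letters TTTATNG occurred in 3 of 12 windows, of PLS1 and MYO1A, against 8.93%. The interferon elements GAS (TTCNNNGAA) and ISRE and the NF-kB element occurred in none of the 12, against 6.57%, 3.02% and 1.73%. A match of letters is a description of the window and not evidence of binding. The 4 windows with CAAAGT are shown because they include both directions of result, MYO1A and CDHR2 with low ratios and USH1C and MYO7B near level. Each line gives the 100 bases before the annotated start of that window, in the direction of the gene and outside annotated exons. CAAAGT or its reverse complement ACTTTG is in capitals.
MYO1A, chr12:57050130-57050229, minus strand: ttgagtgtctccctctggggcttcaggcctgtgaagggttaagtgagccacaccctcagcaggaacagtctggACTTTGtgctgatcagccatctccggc
CDHR2, chr5:176549242-176549341, plus strand: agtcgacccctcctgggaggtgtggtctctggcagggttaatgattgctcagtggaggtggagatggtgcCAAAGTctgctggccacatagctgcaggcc
USH1C, chr11:17533886-17533985, minus strand: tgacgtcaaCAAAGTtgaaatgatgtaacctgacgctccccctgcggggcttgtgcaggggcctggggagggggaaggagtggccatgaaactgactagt
MYO7B, chr2:127535583-127535682, plus strand: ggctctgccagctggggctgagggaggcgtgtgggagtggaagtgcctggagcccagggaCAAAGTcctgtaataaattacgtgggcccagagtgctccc
The letters lay 27 to 22 bases before the start of the window in MYO1A, 30 to 25 in CDHR2, 91 to 86 in USH1C and 40 to 35 in MYO7B. Only the MYO7B window adjoins the outer start of its gene. The windows shown for MYO1A, CDHR2 and USH1C lie inside the span of the gene, before an inner start. The windows at the outer starts of MYO1A, CDHR2 and USH1C did not hold the letters. Windows with the letters thus belonged to genes that were lower in 3CK and to genes that were not.

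Within CNT, the split by FABP2 and RBP2 separated the genes along another line. In positive cells 5 of the 10 were at least 2-fold higher than in negative cells, where 4.96% of 9487 genes were, and none was 2-fold lower, where 7.83% were. These were MYO1A (33.1 against 4.22 CPM, log2 ratio 2.97), CDHR5 (191 against 40.1 CPM, 2.25), CDHR2 (46.1 against 10.4 CPM, 2.15), ESPN (39.3 against 10.3 CPM, 1.93) and MYO7B (52.3 against 13.8 CPM, 1.92). The other 5 differed less: VIL1 was at 214 and 128 CPM (0.74), PLS1 at 66.5 and 47.7 (0.48), EPS8 at 58.3 and 42.5 (0.46), EZR at 357 and 300.4 (0.25) and USH1C at 98.1 and 82.9 (0.24). Thus 3 of the 4 adhesion genes but 2 of the 6 core genes were enriched in the FABP2/RBP2-positive cells, and harmonin was nearly as high outside them. These cells also held more of the summed goblet markers than negative cells (3269 against 1512 CPM). Their summed hepatic markers were higher too (124891 against 100280 CPM), though 4 of those 8 markers had a ratio below 0. The part of these transcripts was not tested.

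In 3CK 7 of the 10 were at least 2-fold higher in positive than in negative cells, against 8.37% of 9621 genes, and none was 2-fold lower, against 14.4%. To the 5 genes above were added VIL1 (74.7 against 28.8 CPM, 1.38) and PLS1 (58.6 against 20.8 CPM). The ratio was 3.42 for MYO7B, 3.31 for CDHR2 and 4.40 for MYO1A, the last on 12 UMIs in positive cells. EZR was at 364 and 398 CPM, a log2 ratio of -0.13 (-0.29 to 0.03). All these 3CK values rest on 13 cells, and 1 of them supplied 55.1% of the MYO7B and 56.8% of the CDHR2 UMIs. Without it positive 3CK cells held 87.5 CPM of MYO7B in place of 179 and 20.0 CPM of CDHR2 in place of 42.5, against 16.7 and 4.29 CPM in negative cells.

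The comparison of the libraries within each class showed which differences remained outside the split. In negative cells 5 of the 10 were at least 2-fold lower in 3CK, where 7.73% of 9798 genes were, and none was 2-fold higher, where 8.04% were. MYO1A was again under the 10 CPM that those genes had to reach, and without it 4 of 9 were lower. VIL1 had a log2 ratio of -2.15, MYO1A -2.69, ESPN -1.52, CDHR2 -1.28 and PLS1 -1.20. CDHR5, at 40.1 and 22.7 CPM, had a ratio of -0.82 (-0.92 to -0.73) and was the gene that left the 2-fold group. With positive cells weighted in both libraries by their share of UMIs in CNT (7.55%), 4 of the 10 were at least 2-fold lower. The share over all genes was not computed for this weighting, so the count has no background beside it. CDHR2 then had a log2 ratio of -0.87 and CDHR5 of -0.81, while VIL1 kept -2.06, MYO1A -1.96, ESPN -1.41 and PLS1 -1.06. The CDHR2 value gives weight to the 13 positive 3CK cells, of which 1 supplied 56.8% of their CDHR2 UMIs. Without that cell they held 20.0 CPM of CDHR2 in place of 42.5, and the weighted ratio was not computed again without it. Positive cells had supplied 39.0% of the MYO1A UMIs, 28.0% of the CDHR5 UMIs and 26.6% of the CDHR2 UMIs in CNT, against 12.0% of the VIL1 UMIs.

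In positive cells 3 of the 10 were at least 2-fold lower in 3CK, against 11.3% of 9296 genes, and 2 were at least 2-fold higher, against 14.8%. The lower ones were VIL1 at 214 and 74.7 CPM (-1.52, -1.90 to -1.16), MYO1A at 33.1 and 13.8 CPM (-1.26, -2.25 to -0.42) and ESPN at 39.3 and 18.4 CPM (-1.10, -1.93 to -0.36). The higher ones were MYO7B at 52.3 and 179 CPM (1.78) and EPS8 at 58.3 and 128 CPM (1.13). One of the 13 cells gave 86 of the 156 MYO7B UMIs (55.1%), 56.8% of the CDHR2 UMIs and 46.8% of the EPS8 UMIs. It had 616 UMIs per 10000 of the nuclear RNA MALAT1, against a median of 5.09 in the other 12. Without that cell, a comparison added after the data were seen, the log2 ratio of MYO7B was 0.74 (0.34 to 1.13), of EPS8 0.34 (-0.09 to 0.75), of ESPN -0.98 and of CDHR2 -1.21 in place of -0.12. MYO7B was then higher by less than 2-fold with an interval above 0, EPS8 was not 2-fold higher, CDHR2 was 2-fold lower and ESPN no longer was, while VIL1 stood at -1.56 and MYO1A at -1.14. After thinning to 10000 UMIs, MYO7B was found in 10 of 13 positive 3CK cells and 28 of 76 positive CNT cells, a difference of 40.1 points (10.7 to 58.0). After thinning to 5000 UMIs it was found in 5 of 13 and 17 of 76. That difference of 16.1 points had an interval that included 0 (-7.19 to 43.3).

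**Figure D3:**
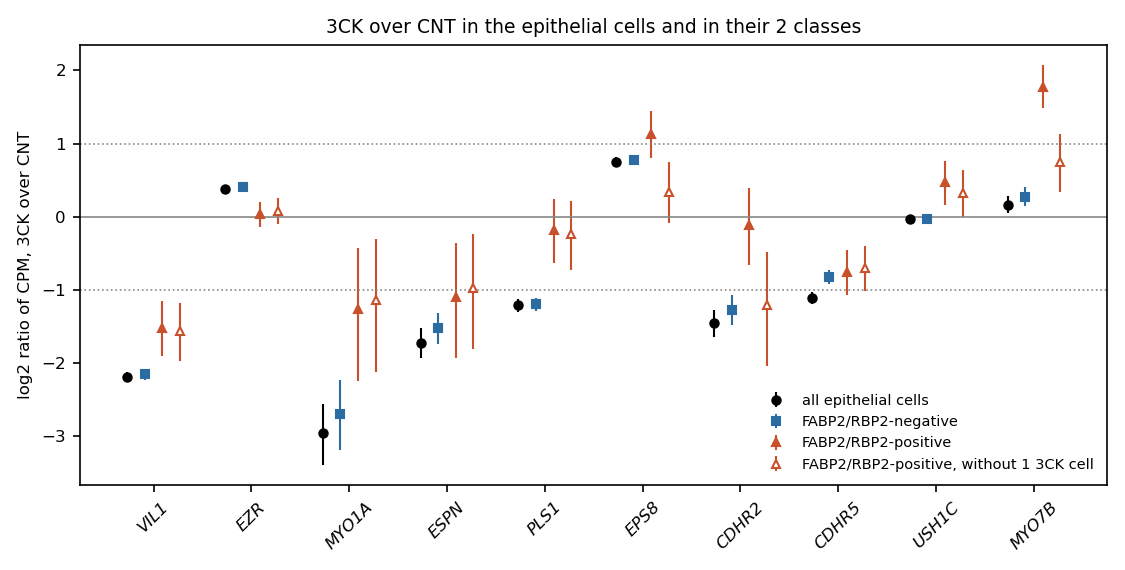
Log2 ratio of CPM, 3CK over CNT, for the 10 genes in all epithelial cells (black), the FABP2/RBP2-negative (blue) and -positive cells (filled red), and the positive cells without 1 MALAT1-rich 3CK cell (open red); bars are counting intervals and dotted lines 2-fold. VIL1 lies below -1 in each, and the MYO7B, EPS8 and CDHR2 values of positive cells move when that cell is left out.

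Barcodes with at least 300 MALAT1 UMIs per 10000 numbered 57 in CNT and 81 in 3CK epithelium, and several of the genes were higher in them. EPS8 stood at 181 CPM in these barcodes and 39.0 CPM in the others of CNT, and at 189 and 64.3 CPM in 3CK. MYO7B was at 54.8 and 15.4 CPM in CNT and at 78.0 and 14.2 CPM in 3CK, where these barcodes supplied 30.2% of its UMIs. CDHR2 had log2 ratios of 1.27 and 1.67 between MALAT1-rich and other barcodes in CNT and 3CK, and USH1C of 0.86 and 0.84. CDHR5 was not higher in them, with log2 ratios of -0.38 and 0.00. By the GENCODE annotation intron makes up 96.7% of EPS8, 91.3% of MYO7B, 89.9% of CDHR2 and 59.4% of CDHR5, but also 95.5% of PLS1 and 93.9% of EZR, whose log2 ratios between these barcodes and the others were 0.60 and 0.69 (PLS1) and 0.25 and 0.11 (EZR) in CNT and 3CK. Whether intronic reads were counted is not given in the sources used here, and the part of introns in these values was not tested. With the MALAT1-rich barcodes left out, the log2 ratio of MYO7B between the libraries was -0.13, of EPS8 0.72 and of VIL1 -2.26. The near-level MYO7B value of all epithelial cells thus lay slightly above 0 with these barcodes and slightly below it without them.

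Because the libraries differ in hepatic transcripts, the genes were also compared within 3 bands of TTR. Under 50 UMIs per 10000 there were 81 CNT and 221 3CK cells, from 50 to under 500 there were 365 and 427, and at 500 or more there were 497 and 69. In these bands 4, 6 and 3 of the 10 genes were at least 2-fold lower in 3CK, beside 8.75%, 14% and 6.74% of all genes with at least 10 CPM. None was 2-fold higher, beside 6.05%, 5.59% and 5.29%. Among members that reached 10 CPM in the band, 2 of 8, 5 of 9 and 2 of 9 were lower. VIL1 was at 73.4 and 25.6 CPM in the low band, at 161 and 27.6 CPM in the middle band and at 126 and 54.0 CPM in the high band, with log2 ratios of -1.52, -2.54 and -1.22. MYO1A and CDHR2 were likewise 2-fold lower in all 3 bands, MYO1A on 13 to 26 UMIs in 3CK. PLS1 had log2 ratios of -0.26, -1.60 and -0.96, so its difference was small where TTR was low. CDHR5 had ratios of -0.68, -1.21 and -0.39.

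The higher level of EPS8 in 3CK was not seen within the bands. EPS8 stood at 104 and 113 CPM in the low band, at 59.1 and 62.7 CPM in the middle band and at 25.2 and 28.0 CPM in the high band. Its log2 ratios were 0.12, 0.08 and 0.16, each with an interval that included 0, and its level went down from the low to the high band in both libraries. The bands were also weighted by their UMI shares in CNT, a comparison added after the data were seen. EPS8 then had a ratio of 0.11 in place of 0.75 and EZR of 0.14 in place of 0.38. With this weighting CDHR5 had -0.67 and VIL1 -1.67, and 5 of the 10 genes were 2-fold lower. The share over all genes was not computed for it. USH1C had ratios of 0.00, -0.28 and 0.02. EZR and MYO7B changed sign between bands. EZR was at 589 and 474 CPM in the low band, a log2 ratio of -0.31 (-0.37 to -0.26), and had ratios of 0.19 and 0.22 in the middle and high bands. MYO7B had ratios of 0.57, -0.73 and 0.78.

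**Figure D4:**
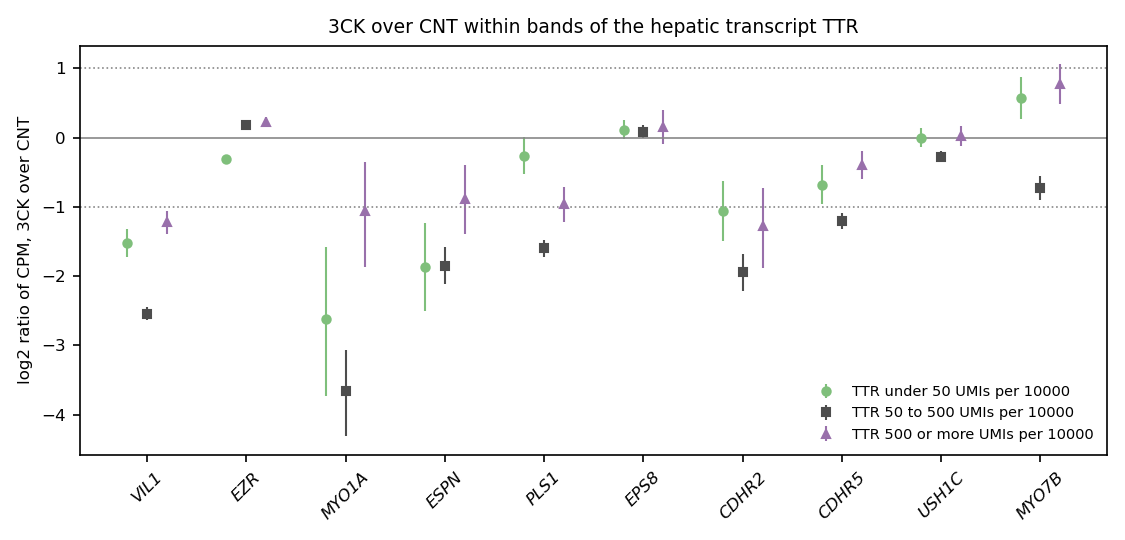
Log2 ratio of CPM, 3CK over CNT, for the 10 genes in epithelial cells with TTR under 50 (circles), 50 to under 500 (squares) and 500 or more UMIs per 10000 (triangles); bars are counting intervals and dotted lines 2-fold. EPS8 and USH1C lie near 0 in the outer bands, VIL1, MYO1A and CDHR2 below -1 in all 3, and MYO7B on both sides of 0.

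The share of cells with at least 1 UMI was taken after thinning every cell to 10000 UMIs, because cells of 3CK were deeper. In CNT 62.6% of the cells held VIL1 (59.4 to 65.7), in 3CK 23.3% did (20.2 to 26.6), a difference of -39.3 points (-43.5 to -34.8). Before thinning the shares were 91.1% and 62.5%, and collagen cells gave 1.49% and 0.917% after it. The share was lower in 3CK also for PLS1 (30.6% and 19.4%), CDHR5 (31.9% and 20.5%), ESPN (11.6% and 3.07%), CDHR2 (11.8% and 7.11%) and MYO1A (6.04% and 0.837%), each with an interval of the difference below 0. Unthinned, these 5 stood at 77.2% and 70.3%, 61.6% and 57.9%, 43.7% and 24.1%, 40.9% and 26.1%, and 22.7% and 5.44%. In collagen cells the thinned share of PLS1 was 7.76% and 3.67%, and those of the other 4 were 1.49% or less in CNT. In thinned 3CK collagen cells MYO1A, ESPN and CDHR5 had a UMI in 0 of 109 cells. A limit of 3 cells of the 109 is 2.75% at this depth, and the exact binomial upper bound is 3.33%. Unthinned, ESPN and CDHR5 were each seen in 2.75% of them and MYO1A in none.

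EPS8 was found in 29.6% of CNT and 44.4% of 3CK epithelial cells after thinning (68.3% and 89.3% before), against 42.7% and 37.6% of collagen cells, so in CNT its share in epithelium was below that in collagen cells. EZR was found in 87.7% and 94.0% (97.8% and 99.0% before), against 69.6% and 79.8% of collagen cells. USH1C was found in 49.7% and 51.2% (90.0% and 93.4% before), with a difference of 1.45 points (-3.40 to 6.29), against 3.28% and 3.67% of collagen cells. MYO7B was found in 12.8% and 13.8% (34.4% and 49.7% before), a difference of 0.976 points (-2.29 to 4.34), against 0.896% and 0.917%. For USH1C and MYO7B the shares, like the CPM, left no difference beyond counting error or only a small one.

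**Figure D5:**
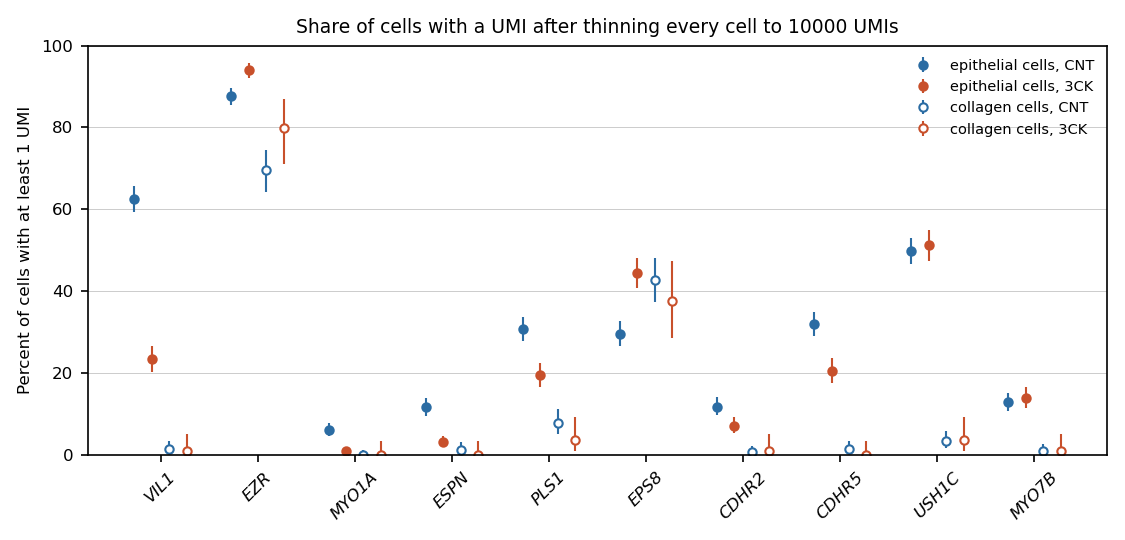
Percent of cells with at least 1 UMI of each gene after thinning every cell to 10000 UMIs, in epithelial cells (filled) and collagen cells (open) of CNT (blue) and 3CK (red), with exact binomial intervals. VIL1 shows the widest gap between the libraries, 62.6% against 23.3%, and EZR and EPS8 are common in collagen cells.

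Counted together after thinning, at least 5 of the 10 genes were found in 22.1% of CNT epithelial cells (19.4 to 24.8) and 9.34% of 3CK cells (7.32 to 11.7). Among positive cells the shares were 61.8% and 61.5%, the latter 8 of 13 cells, and among negative cells 18.6% and 8.38%. The median cell held 3 of the 10 genes in both libraries. All 4 adhesion genes were found together in 19.1% of CNT and 12.7% of 3CK cells without thinning, and after thinning in 1.38% and 0.976%. In CNT positive cells the unthinned share was 59.2%, and in 3CK positive cells 30.8%, or 4 of 13.

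Across cells, the 10 genes were only loosely tied to each other. Over their 45 pairs the Pearson correlation of log2 levels had a median of 0.22 in the 943 CNT cells and 0.19 in the 717 3CK cells, as a description of sparse counts whose cells share a library. The highest pair in CNT was MYO1A with CDHR5, at 0.47. Among the 2938 other genes with at least 50 CPM in CNT, those whose level was most like the sum of the 10 were MUC13, a membrane mucin (0.56), the actin crosslinker ACTN4 (0.56), CEACAM6 (0.51), LMO7 (0.51) and MGLL (0.51). Among 3221 such genes in 3CK they were CD2AP (0.57), NCOR1 (0.56), ACTN4 (0.55), the spectrin SPTBN1 (0.54) and CLIC5 (0.54). ACTN4 was in both lists, and EZR, the gene with most UMIs, correlated with the sum at 0.70 and 0.76. The sum was nearly unrelated to depth, at -0.01 and -0.05.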

How the data were processed

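Droplet libraries (10x Genomics 3' v3.1, about 8300 cells loaded each, per the labels' protocols) were deposited as raw UMI counts in a matrix of genes and barcodes, with no scaling by the authors. The submitters' processing notes name Cell Ranger 7.1.0 and GRCh38. The annotation is not given in the sources used here. CNT held 3257 barcodes with 105314879 UMIs and 3CK 1641 with 94887438. Barcodes with at least 500 genes and at most 20% mitochondrial UMIs were kept, and the highest Scrublet scores (scanpy 1.11.5) removed at 0.8% per 1000 barcodes (52 and 16), leaving 2487 and 1398. Counts were summed per library and class of cells. Log2 ratios carry exact binomial intervals, CPM exact Poisson and shares Clopper-Pearson intervals. A background gene had at least 10 CPM in either group. In epithelial cells 3 UMIs are 0.0439 CPM in CNT and 0.0441 in 3CK. Ratios were checked on simulated Poisson counts. The simulation had no variation between cells, so it could not show whether the intervals cover such variation. The members, lists and classes of cells were chosen with earlier results of these data known. All 10 members are named, and of each list the 2 most abundant genes, the lowest and highest ratio and close relatives of a member. Some genes that this rule selected are not reported here. Alternatives varied depth, filters, boundaries, scaling (TMM, edgeR 4.0.16) and weights. Positions are from GENCODE 44.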

Additional observations from a re-analysis of the deposited data

Results flagged for a closer look

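EPS8 differed between the libraries in opposite directions in the 2 kinds of cells. Its log2 ratio of 3CK over CNT was 0.75 in epithelial cells and -0.80 in collagen cells, with counting intervals that exclude 0 in both. Within the 3 bands of TTR, however, the epithelial ratio was 0.12, 0.08 and 0.16, each with an interval that includes 0, and with the bands weighted as in CNT it was 0.11. With 1 library per group the difference between these ratios was not tested. EPS8 was the 1 gene of the set with intervals on opposite sides of 0 in those cells.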

How the results depend on the processing

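No direction that exceeded 2-fold reversed under the alternatives. With the split at 1 UMI per 10000 of FABP2 and RBP2 the difference in positive share was -8.38 points in place of -6.25. With each cell weighted equally, 1 of the 10 genes (VIL1) was 2-fold lower in positive cells in place of 3. The share over all genes was not computed with equal weights. Over 20 alternatives in all epithelial cells VIL1 ranged from -2.43 to -1.67, MYO1A from -3.47 to -1.78, ESPN from -1.93 to -1.26 and PLS1 from -1.34 to -1.06, and all 4 were 2-fold lower in each. CDHR2 was 2-fold lower in 19 and CDHR5 in 17 of the 20. The exception for CDHR2 was the weighting by the CNT share of positive cells (-0.87), where 1 positive 3CK cell supplied 56.8% of the CDHR2 UMIs of its class. Alternatives that changed only the boundary or the genes of the FABP2/RBP2 split are counted among the 20, although they could not move these values. EPS8 ranged from 0.11 to 0.82, and USH1C (-0.18 to 0.06) and MYO7B (-0.25 to 0.79) had no steady sign. A total without mitochondrial, ribosomal and the 50 most abundant genes moved the median of all genes by -0.12, and TMM moved it by 0.02. Among genes with at least 50 CPM, 2 of 5 members were 2-fold lower in all epithelial cells, beside 6.41% of genes. With a minimum of 1 CPM it was 6 of 10, beside 11.8%. Values of positive 3CK cells are limited by 13 cells, MYO1A by 56 UMIs, and each group by 1 library. No paired analysis was possible because each group is 1 library.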
